A study of Homo sapiens with 6 samples.

Results

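The complement activation components are the plasma proteins that start the complement cascade and carry it as far as the cleavage of C3 and C5. The 10 genes examined here were chosen by name, as C1R, C1S, C4A, C4B, C2, MBL2, MASP1, CFB, C3 and C5, and all 10 were found among the 26184 genes and loci of the expression table. Their RNA was compared between 3 samples of Huh7 P, the parental line of human hepatocellular carcinoma cells, and 3 samples of Huh7 LR, a lenvatinib-resistant line derived from it. Lenvatinib is a multikinase inhibitor used against liver cancer. Both lines carry the genotype label WT. Huh7 P is labelled as untreated at time 0, and Huh7 LR as kept under lenvatinib between 1 and 20 μM for 10 months. Once established, Huh7 LR was kept in medium with 20 μM lenvatinib, and whether the plates taken for RNA also held the drug is not stated. Huh7 LR is a single derived line, so selection, drug exposure and separate culture cannot be told apart.

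Complement is a cascade of plasma proteases, and hepatocytes make most of its circulating components. In the classical pathway, the proteases C1r and C1s are carried by C1q, and C1s cleaves C4 and C2 to form a C3 convertase. In the lectin pathway, mannose-binding lectin, the product of MBL2, binds sugars on microbes and works with the MASP proteases. Factor B, the product of CFB, supplies the protease of the alternative pathway convertase. All routes meet at C3, and cleavage of C5 opens the terminal pathway that builds the membrane attack complex. C3, C4 and C5 belong to the family of α2-macroglobulin, and factor B and C2 are related proteases encoded side by side.

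The libraries held 62738937 to 71427573 counted reads, and the ranges of the lines overlapped. Where a gene had no count, up to 3 counts, or 0.042 to 0.0478 CPM (the usual scaling of counts to library size), remain possible, a limit for counting error only. Spearman's correlation across genes was 0.991 to 0.995 within the lines and 0.974 to 0.976 between them, and genes are not independent replicates in such a correlation. The methods describe the samples of a line as independent, without saying how they were kept apart, and p-values measure the spread between them, not between separately derived lines. Of 8 hepatocyte markers, ALB, APOA1, TTR and TF passed an adjusted p of 0.05 with more RNA in Huh7 LR, as 23.3% of all genes and loci tested did, and APOB, SERPINA1, AFP and HNF4A did not pass the test. ALB, which encodes albumin, had a log2 fold change of 0.74 ± 0.08 (SE, edgeR adjusted p = 4.68e-05).

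Huh7 LR cells held more RNA of most activation components than Huh7 P cells did. Of the 10 genes, C1R, C1S, MASP1 and MBL2 were called higher in Huh7 LR and 0 were called lower, a call being an edgeR quasi-likelihood result with adjusted p below 0.001 and more than a 2-fold difference. Of all 17531 genes and loci tested, 4.43% were called higher by the same rule and 1.78% lower. With the adjusted p limit at 0.05 and no fold limit, C2, CFB, C3 and C5 were also higher, which makes 8 of 10, against 23.3% of all genes and loci. None of the 10 was lower by that limit, against 22.4%, and C4A and C4B did not pass the test. In CPM the lines did not overlap for these 8 genes, with Huh7 LR on top, a separation present in 28.2% of all genes and loci, and in 55.9% counting both directions. The median log2 fold change was 0.88 over the 10 genes and 0.0046 over all genes and loci tested. Together the 10 genes took 0.053% to 0.0537% of the counted reads in Huh7 P and 0.097% to 0.109% in Huh7 LR.

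**Figure D1:**
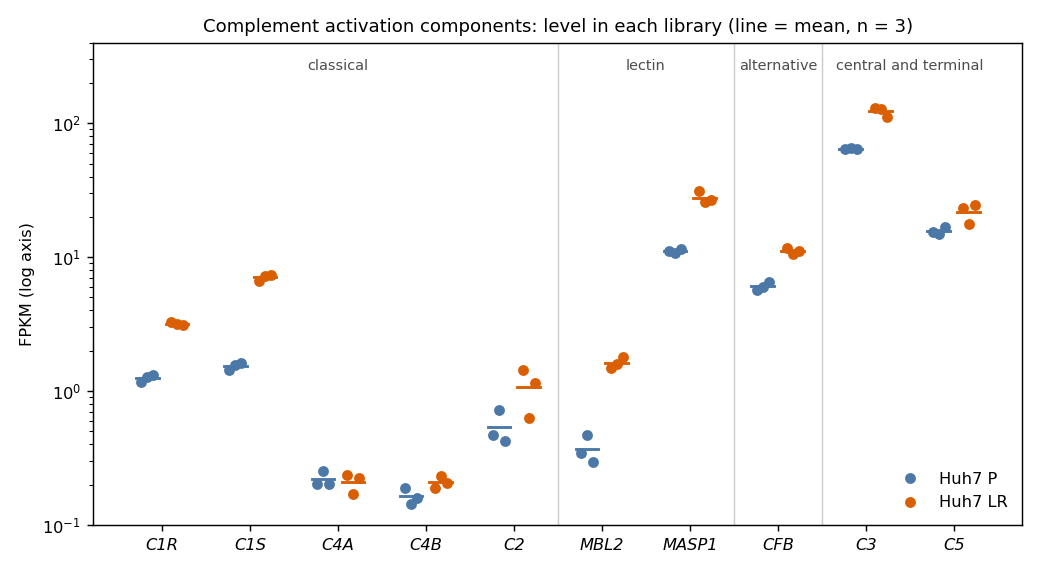
Each point is the FPKM value (reads scaled for transcript length and library size, on a log axis) of a gene in 1 library, with Huh7 P in blue and Huh7 LR in orange, and each short line is the mean of 3 libraries. C3 stands highest in both lines, the points of C4A and C4B overlap between the lines, and those of C1S and MBL2 lie far apart.

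Levels can be compared between genes only per length, and FPKM values give such a scale. C3 had the highest level in both lines, with 64.4 ± 0.678 FPKM in the parental and 124 ± 10.3 FPKM in the resistant line (SD, n = 3 each). In Huh7 P it was followed by C5, MASP1, CFB, C1S, C1R, C2, MBL2, C4A and C4B. In Huh7 LR the order was C3, MASP1, C5, CFB, C1S, C1R, MBL2, C2, C4A and C4B. MASP1 thus stood below C5 in all 3 Huh7 P libraries and above it in all 3 Huh7 LR libraries. Neighbours in these orders did not overlap, except C2 with MBL2 in Huh7 P and C4A with C4B in Huh7 LR. The combined level of C4A and C4B was 0.383 ± 0.0179 FPKM in the parental and 0.419 ± 0.0147 FPKM in the resistant line (SD, n = 3 each). The level of C3 was therefore 169 ± 6.61 (SD, n = 3) times that of C4 in Huh7 P and 296 ± 31.4 (SD, n = 3) times in Huh7 LR.

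C1S encodes the protease C1s, which cleaves C4 and C2. Its CPM values, scaled by the TMM method, were 4.28, 4.88 and 5.02 for Huh7 P, against 19.3, 22.1 and 21.8 for Huh7 LR. The lines did not overlap, and the 3 libraries of each line lay close together. The log2 fold change was 2.16 ± 0.11 (SE, edgeR adjusted p = 2.30e-07), a 4.46-fold rise. C1R encodes C1r, which activates C1s within the same complex. It had 3.12, 3.61 and 3.81 CPM in Huh7 P, while the Huh7 LR libraries had 9.11, 9.04 and 8.59 CPM, again without overlap. Its log2 fold change was 1.34 ± 0.13 (SE, edgeR adjusted p = 1.22e-05), a 2.54-fold rise.

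The genes lie 9167 bases apart on opposite strands of chromosome 12, with C1S from 6988259 to 7071032 and C1R from 7080199 to 7092607 on GRCh38. The ratio of C1S to C1R in FPKM was 1.23 in each of the 3 Huh7 P libraries. In Huh7 LR it was 2.02, 2.27 and 2.37, so that C1S rose further than C1R in every library. A two-sided exact permutation test of this ratio gave p = 0.1, the smallest value that 3 samples against 3 allow. Adjusted over 8 ratios and shares compared here, p was 0.16. The other proteins of the C1 complex come from C1QA, C1QB and C1QC, which are genes of macrophages and had no count in any library.

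C1R and C1S share exon sequence with neighbours on the same strand, and reads from the shared part could have been counted for either gene. C1R shares 672 exon bases, 11.4% of its own, with C1RL, which encodes a related protease. C1RL rose from 38.0 ± 0.779 to 65.7 ± 5.17 CPM (mean ± SD, n = 3 per line). The sum of C1R and C1RL had a log2 fold change of 0.85 ± 0.07 (SE, edgeR adjusted p = 6.07e-06), under the 2-fold limit of a call. C1RL supplied most of that sum, which therefore says little about C1R. C1S shares 229 exon bases, 3.54% of its own, with EMG1, a gene of ribosome biogenesis with a far larger count. EMG1 fell from 101 ± 6.62 to 82.8 ± 4.38 CPM (mean ± SD, n = 3 per line), with a log2 fold change of -0.29 (edgeR adjusted p = 0.00802). Their sum was 106 ± 6.60 CPM in the parental and 104 ± 5.32 CPM in the resistant line (SD, n = 3 each), and did not pass a two-sided exact permutation test (p = 0.6, with 0.1 as the lowest value 3 against 3 allows). EMG1 supplied most of that sum, which is therefore not a value of C1S itself. The sum of C1R, C1S, C1RL and EMG1 had a log2 fold change of 0.27 ± 0.07 (SE, edgeR adjusted p = 0.00569). The part of shared reads in the values of C1S was not tested.

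**Figure D2:**
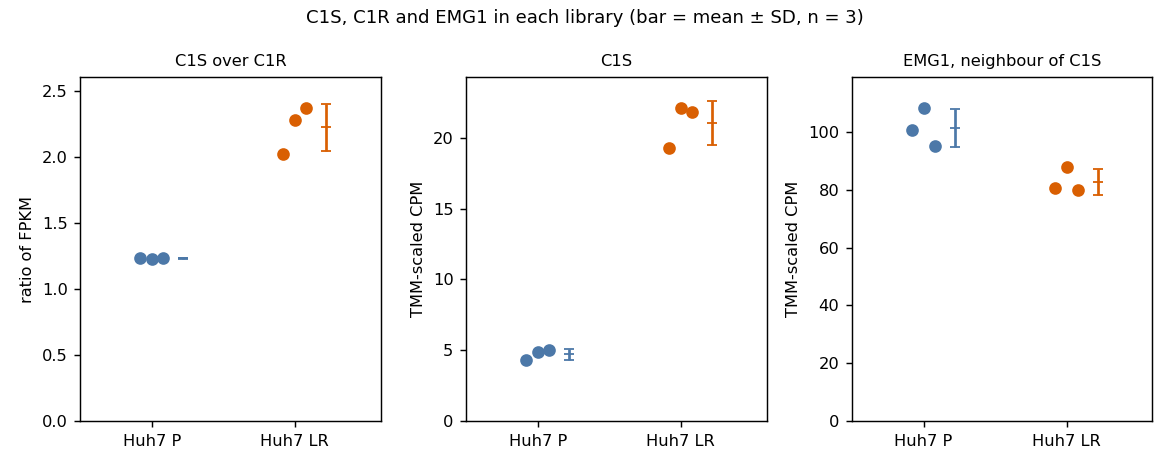
The panels show the ratio of C1S to C1R in FPKM, and the CPM of C1S and of its neighbour EMG1, with 1 point for each library and a bar for the mean ± SD of 3 libraries. The ratio is 1.23 in all Huh7 P libraries and 2.02 to 2.37 in Huh7 LR, C1S is higher in Huh7 LR, and EMG1 is lower.

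C4A and C4B encode the isotypes of C4, the protein from which C1s and the lectin pathway proteases form part of the C3 convertase. Both lie on chromosome 6, with C4A from 31982024 to 32002681 and C4B from 32014795 to 32035418 on GRCh38. The longest coding transcripts in GENCODE release 29, C4A-243 and C4B-202, are identical at 5414 of 5427 aligned bases (99.8%), and all 13 differing bases lie in the coding part. Of all stretches of 100 bases in C4A-243, 87.8% are also found in C4B-202, so that a read from within these stretches fits both genes. The densest group of differences, in the stretch that sets the isotypes apart, is shown because only reads across such bases tell the genes apart. The capitals mark the 5 differing bases in 60, on the plus strand and across a splice junction, within chr6:31996061-31996215 for C4A and chr6:32028799-32028953 for C4B.
C4A: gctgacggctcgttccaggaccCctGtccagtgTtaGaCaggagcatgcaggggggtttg
C4B: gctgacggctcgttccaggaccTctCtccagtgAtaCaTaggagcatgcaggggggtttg

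C4A had 86, 93 and 80 counts in Huh7 P, while the Huh7 LR libraries had 89, 70 and 90 counts. C4B had 80, 52 and 62 counts in Huh7 P, while the Huh7 LR libraries had 71, 96 and 82 counts. The lines overlapped for both genes. The log2 fold change of C4A was -0.09 (95% interval -0.59 to 0.40, edgeR adjusted p = 0.767), and that of C4B was 0.33 (95% interval -0.17 to 0.84, adjusted p = 0.265). These intervals leave out a rise of 2-fold for either gene, but allow smaller rises, up to 0.40 for C4A and 0.84 for C4B on the log2 scale. Because reads can be split between the copies, the sum is the firmer value. It was 2.28 ± 0.0941 CPM in the parental and 2.45 ± 0.076 CPM in the resistant line (SD, n = 3 each), with a log2 fold change of 0.10 ± 0.16 (SE, edgeR adjusted p = 0.623). The lines lay close but did not overlap for the sum, with 2.35 CPM as the highest Huh7 P and 2.37 CPM as the lowest Huh7 LR value. Of all genes and loci tested, 55.9% did not overlap in either direction. A two-sided exact permutation test of the sum gave p = 0.1, the smallest possible. C4A also shares 303 exon bases with STK19, which was higher in Huh7 LR, and the sum of C4A, C4B and STK19 had a log2 fold change of 0.40 (edgeR adjusted p = 0.0113). STK19 took the larger part of that sum.

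The share of C4 counts given to C4B was 48.2%, 35.9% and 43.7% for Huh7 P, against 44.4%, 57.8% and 47.7% for Huh7 LR. The lines overlapped, and a two-sided exact permutation test gave p = 0.3, or 0.343 adjusted over the 8 ratios and shares, where each of the 5 ratios with a raw p of 0.1 has 0.16. Each library held 142 to 172 C4 counts, so that the exact binomial 95% intervals are wide, from 28.1% to 44.2% for the lowest share and from 49.9% to 65.4% for the highest. These intervals cover counting error only.

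**Figure D3:**
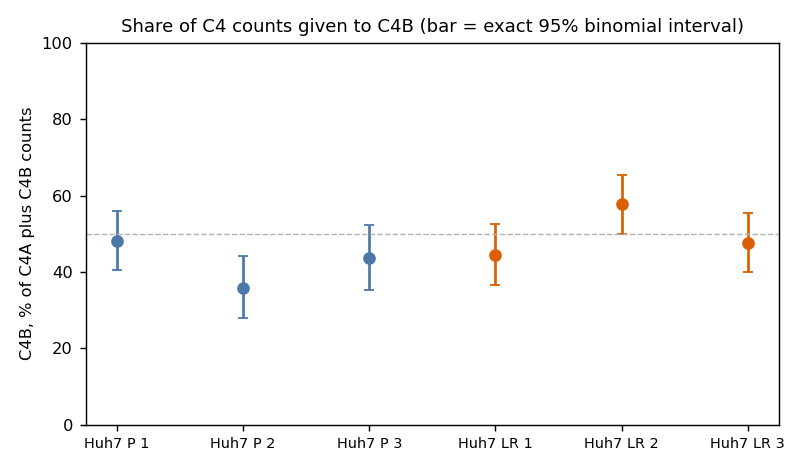
Each point is the percentage of C4A plus C4B counts that was given to C4B in 1 library, with its exact binomial 95% interval, and the broken line marks an equal split. The shares run from 35.9% to 57.8%, and the lines overlap.

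C2 encodes the protease that joins C4b in the classical and lectin C3 convertase. It had 1.13, 1.46 and 1.12 CPM in Huh7 P, while the Huh7 LR libraries had 2.44, 1.57 and 2.54 CPM, from 73 to 173 counts. The lines did not overlap in CPM, although Huh7 LR replicate 2 lay close to the highest Huh7 P library. This is a log2 fold change of 0.82 ± 0.23 (SE, edgeR adjusted p = 0.014). It no longer passed without Huh7 P replicate 1 (adjusted p = 0.054), without Huh7 P replicate 3 (0.0544) or without Huh7 LR replicate 3 (0.064). In FPKM the lines overlapped, since Huh7 LR replicate 2 had 0.631 FPKM and Huh7 P replicate 2 had 0.722 FPKM. The transcript length implied by dividing counts by FPKM varied 1.47-fold between libraries for C2 and at most 1.05-fold for each of the other 9 genes. C2 also shares 141 exon bases with ZBTB12 on the opposite strand, which had 459 to 659 counts. ZBTB12 had a log2 fold change of -0.12 (edgeR adjusted p = 0.525). The part of such reads in the values of C2 was not tested.

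CFB encodes factor B. It had 17.5, 18.5 and 20.1 CPM in Huh7 P, while the Huh7 LR libraries had 34.9, 32.3 and 33.1 CPM, with a clear gap between the lines. Between the lines the log2 fold change was 0.84 ± 0.08 (SE, edgeR adjusted p = 1.87e-05), a 1.79-fold rise. C2 ends where CFB begins on chromosome 6, with 23 shared exon bases, and the read-through gene AL645922.1 covers 45% of the exon bases of CFB and 32.9% of those of C2. AL645922.1 had no count in any library, but it shares 44.7% of its exon bases with C2 and 55.3% with CFB. Its count of 0 therefore does not show that read-through RNA was absent. The sum of all 3 genes had a log2 fold change of 0.84, as CFB alone had, and CFB supplied most of that sum. The ratio of CFB to C2 in FPKM was 11.9 ± 3.48 (SD, n = 3) in Huh7 P and 11.5 ± 4.64 (SD, n = 3) in Huh7 LR (two-sided exact permutation test, p = 0.9).

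MBL2 encodes mannose-binding lectin. It had 1.32, 1.83 and 1.18 CPM in Huh7 P, while the Huh7 LR libraries had 5.62, 6.17 and 6.89 CPM. Every Huh7 LR library was above 3 times the highest Huh7 P library. The log2 fold change was 2.11 ± 0.19 (SE, edgeR adjusted p = 7.93e-06), a 4.31-fold rise. MASP1 encodes the lectin pathway protease MASP-1 and, by alternative splicing, further products that gene counts do not separate. It had 45.3, 44.6 and 47.2 CPM in Huh7 P, while the Huh7 LR libraries had 125, 105 and 109 CPM, without overlap. The fitted log2 difference was 1.30 ± 0.08 (SE, edgeR adjusted p = 7.25e-07), a 2.47-fold rise. MASP1 was present at 31.4 ± 7.89 (SD, n = 3) times the FPKM of MBL2 in Huh7 P and at 17.3 ± 3.28 (SD, n = 3) times in Huh7 LR (two-sided exact permutation test, p = 0.1, the smallest possible). MASP2, the gene of the protease that cleaves C4 and C2 in the lectin pathway, had a log2 fold change of 0.32 (edgeR adjusted p = 0.171). The ficolin genes FCN1 and FCN2, whose products bind sugars as mannose-binding lectin does, had no count in any library, and FCN3 had at most 5.

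C3 encodes the component on which all pathways act. It had 364, 373 and 369 CPM in Huh7 P, while the Huh7 LR libraries had 727, 728 and 630 CPM. The lines were far apart, and Huh7 LR replicate 3 was the lowest of its line. From this followed a log2 fold change of 0.91 ± 0.08 (SE, edgeR adjusted p = 5.04e-06), a 1.88-fold rise that stayed under the 2-fold threshold of a call. C3 supplied 65.9% to 72.0% of the counts of the 10 genes in each library. The ratio of C3 to ALB in FPKM was 0.0123 ± 0.00108 (SD, n = 3) in Huh7 P and 0.0139 ± 0.00153 (SD, n = 3) in Huh7 LR, a difference that did not pass (two-sided exact permutation test, p = 0.2).

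C5 encodes the source of the anaphylatoxin C5a and of C5b, on which the membrane attack complex is built. It had 90.9, 88.3 and 101 CPM in Huh7 P, while the Huh7 LR libraries had 135, 104 and 143 CPM. Huh7 LR replicate 2 lay just above the highest Huh7 P library, and the other Huh7 LR libraries were well above it. The lines thus differed by a log2 fold change of 0.45 ± 0.11 (SE, edgeR adjusted p = 0.00661), a 1.36-fold rise. The ratio of C3 to C5 in FPKM was 4.13 ± 0.297 (SD, n = 3) in Huh7 P and 5.82 ± 1.37 (SD, n = 3) in Huh7 LR (two-sided exact permutation test, p = 0.1, the smallest possible).

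The promoters of activation components are known to respond to cytokine signals and to the transcription factors of the liver. RefSeq promoter entries on GRCh38.p14 matched 6 of the 10 genes, C1R, C2, MASP1, MBL2, CFB and C5, with 10 entries in all, and the 250 bases before each start were searched on both strands for 6 motifs. The motifs were TTCNNNGAA (STAT factors), GAAA and GAAA around NN (IRF factors), TTGCNNAA (C/EBP factors), GGG and CC around NNNNN (NF-κB), GTTAAT (HNF1) and CAAAGTCCA (HNF4). Of all 35116 promoter entries, 6.57% held the STAT motif, 3.02% the IRF motif, 9.05% the C/EBP motif, 54.4% the NF-κB motif, 6.23% the HNF1 motif and 0.325% the HNF4 motif. The promoters of CFB, MBL2 and C1R are shown because these genes were higher in Huh7 LR and hold matches of different kinds, with the matched bases in capitals. The CFB promoter, on the plus strand at chr6:31945845-31946094, held 1 STAT, 1 IRF and 4 NF-κB matches, of which 2 NF-κB matches overlap.
CFB: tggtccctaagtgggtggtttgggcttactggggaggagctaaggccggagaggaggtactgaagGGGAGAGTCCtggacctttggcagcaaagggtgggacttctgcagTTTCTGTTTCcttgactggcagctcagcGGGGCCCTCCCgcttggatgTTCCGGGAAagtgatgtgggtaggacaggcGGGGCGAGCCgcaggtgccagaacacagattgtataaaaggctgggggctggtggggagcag
MBL2: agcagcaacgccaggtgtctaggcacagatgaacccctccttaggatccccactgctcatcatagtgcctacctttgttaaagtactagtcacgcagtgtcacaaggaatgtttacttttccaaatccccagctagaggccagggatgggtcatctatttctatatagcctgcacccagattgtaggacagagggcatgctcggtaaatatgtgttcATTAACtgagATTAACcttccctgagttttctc
C1R: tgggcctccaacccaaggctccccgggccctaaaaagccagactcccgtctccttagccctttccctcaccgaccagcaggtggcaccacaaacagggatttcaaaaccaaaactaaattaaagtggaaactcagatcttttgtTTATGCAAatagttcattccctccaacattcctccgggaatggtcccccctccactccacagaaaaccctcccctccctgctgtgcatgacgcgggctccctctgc

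The MBL2 promoter nearest to the gene's start, on the minus strand at chr10:52771653-52771902, held 2 HNF1 matches and none of the other motifs, and the other MBL2 entry held 1 STAT, 2 C/EBP and 1 NF-κB match. The C1R promoter nearest to the gene's start, on the minus strand at chr12:7092446-7092695, held 1 C/EBP match, and the other C1R entry held 1 match each for STAT, C/EBP, NF-κB and HNF1. The RefSeq starts of CFB and C1R lie 445 and 162 bases inside the gene span of GENCODE. The MASP1 promoter held 0 matches to the 6 motifs, and so did the C2 entry at chr6:31900749-31900998. A match is a description of these letters and not a site of binding.

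The other complement genes were listed from general knowledge in 4 groups of 44 genes, of which 26 had enough counts to test and 9 had no count in any library. Of the 26, Huh7 LR had 10 called higher and 2 called lower, against 4.43% and 1.78% of all genes and loci tested, with a median log2 fold change of 0.52. The terminal components C6, C8B and C7, which build the membrane attack complex, were called higher with log2 fold changes of 2.80, 2.69 and 1.68, each from a mean below 1 CPM in Huh7 P. C6 missed the call without Huh7 P replicate 3 (edgeR adjusted p = 0.0025), Huh7 LR replicate 2 (0.00138) or Huh7 LR replicate 3 (0.00213), and C7 without Huh7 P replicate 2 (0.0013) or Huh7 P replicate 3 (0.00164). C8A rose with a log2 fold change of 0.60, and C8G had one of -0.12 (edgeR adjusted p = 0.728). C1RL rose and CFD, the gene of factor D, which activates factor B, fell by 0.31 on the log2 scale (edgeR adjusted p = 0.0324).

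Genes of complement inhibitors moved in both directions. CFI, which encodes the protease that inactivates C3b and C4b, rose from 48.9 ± 5.29 to 128 ± 15.5 CPM (mean ± SD, n = 3 per line). C4BPA and C4BPB, the genes of C4b-binding protein, were called higher with log2 fold changes of 1.03 and 1.11, as were VTN with 1.16 and CPN2 with 1.15. C4BPA fell under 2-fold without Huh7 P replicate 1 (log2 fold change 0.99) or Huh7 LR replicate 1 (0.94). CLU, the gene of clusterin, rose with a log2 fold change of 0.43 without a call. CPB2, which encodes a carboxypeptidase that inactivates C5a, fell by 0.80 on the log2 scale, and CPN1 had a log2 fold change of 0.09 (edgeR adjusted p = 0.517). Among inhibitors on the cell surface, CD55 and CD59 were called higher with log2 fold changes of 1.44 and 1.19, and CD46 had one of 0.06 (edgeR adjusted p = 0.651). SERPING1, the gene of the C1 inhibitor of C1r and C1s, had a log2 fold change of -0.20 (edgeR adjusted p = 0.34). ITGAM, the gene of a subunit of complement receptor 3, was called lower, with a log2 fold change of -1.81.

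**Figure D4:**
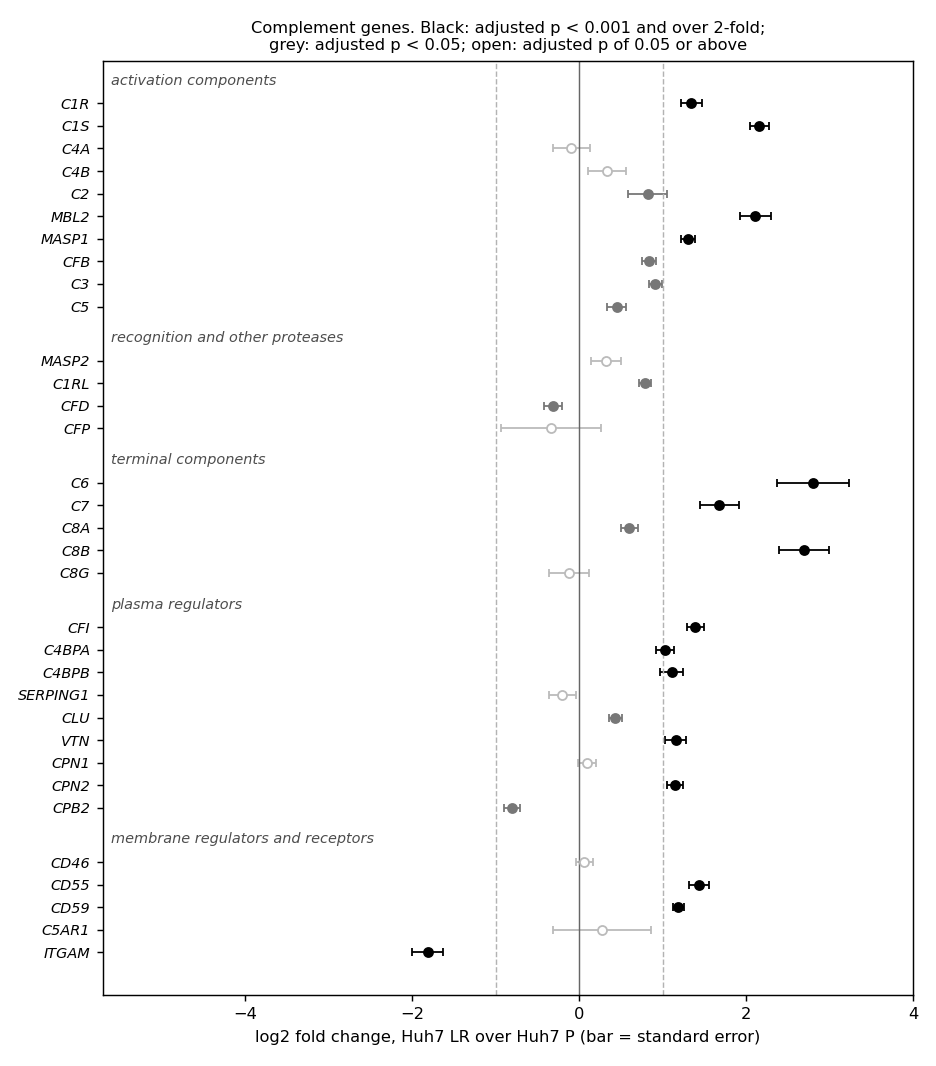
Each point is the log2 fold change of a complement gene between Huh7 LR and Huh7 P with its standard error, from edgeR's quasi-likelihood test on 3 libraries of each line, and the broken lines mark a 2-fold change. Of the 10 activation components, 4 are in black to the right of the line for a 2-fold rise and C4A and C4B are open, and ITGAM stands to the left at -1.81.

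Macrophages and fibroblasts also make complement components, and their markers were low in these libraries. Of 9 macrophage markers, C1QA, C1QB, C1QC, TYROBP and HLA-DRA were at 0 in all libraries, and the whole list summed to 1.90 to 2.24 CPM in Huh7 P and 2.27 to 4.20 CPM in Huh7 LR. MARCO was higher at an adjusted p of 0.0146 in edgeR's test, with at most 32 counts. Of 7 fibroblast and stellate cell markers, DCN was at 0 in all libraries, and the list summed to 2.27 to 2.43 CPM in Huh7 P and 5.12 to 8.22 CPM in Huh7 LR, mostly from COL1A1, which was called higher. Of 5 endothelial markers, CDH5 and LYVE1 were at 0 in all libraries, and the list summed to 39.1 to 47.7 CPM in Huh7 P and 65.3 to 71.4 CPM in Huh7 LR, mostly from PECAM1. The part of these markers in the results was not tested, and in such samples a change in the number of cells that express a gene and a change in RNA per cell cannot be told apart.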

How the data were processed

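Poly(A) RNA was sequenced from 3 parental and 3 resistant samples. The authors deposited 1 table with the read count of each gene in each library, without normalization, and an FPKM value, which the authors scaled for transcript length and library size. The submitters' processing notes name TopHat2, Cufflinks, DESeq and the mouse build mm10, whereas all 19974 annotated gene identifiers are human genes of GENCODE release 29, from which the GRCh38 coordinates and exon overlaps were taken. Whether counting used strand is not given in the sources used here, so that a gene and an antisense partner cannot be told apart. The table holds 34 further lines that name no gene.

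Counts were tested in R 4.3.3 with edgeR 4.0.16 (filterByExpr with a minimum count of 10 and a minimum total of 15, TMM, quasi-likelihood test) over 17531 genes and loci with Benjamini-Hochberg adjustment. Samples were grouped by their labels. A call needed an adjusted p under 0.001 and a log2 fold change beyond 1. Standard errors were derived from the fold change and the F statistic. Sums, ratios and shares were compared by two-sided exact permutation tests. Tried besides were size factors from DESeq2 1.42.0 and its Wald test, no filter, at least 10 counts in every library, limma-trend (limma 3.58.1) on FPKM with a pseudocount of 0.1 or 1 before log2 (genes reaching 0.5 FPKM in 3 or more libraries), a replicate block, summed overlapping genes, another threshold and each library left out in turn. The fits were tested on simulated data. Sequences were aligned with Biopython 1.88, and figures were drawn with matplotlib 3.10.9.

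The members and lists were chosen with earlier results of these data known. Named genes were all 10 members, all called genes of the other lists, up to 3 further genes of each list with the highest mean FPKM, and neighbours on which a value depends. The ratios other than that of C1S to C1R were chosen after the values were seen, as were the 6 promoter motifs, and SERPING1, STAT3, CEBPD, NFKB1 and the genes at 0, which fall outside that rule. Some genes of the lists, which the counts include, are not reported here by name.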

Additional observations from a re-analysis of the deposited data

How the results depend on the processing

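Of 150 values of counts of calls, sums, ratios and shares under the alternatives, 141 were labelled unchanged and 9 moved. The limits were wide, since 551 genes called higher without Huh7 P replicate 3, against 776, were labelled unchanged. With limma-trend on log2(FPKM + 1), which compresses changes of low genes, 268 genes were called higher and 84 lower, against 776 and 312. There 2 activation components, C1S and MASP1, and 6 other complement genes were called higher, and 1 other complement gene was called lower. At an adjusted p under 0.05 with no fold threshold, 4093 genes were higher and 3923 lower, with 8 activation components higher, and 14 other complement genes higher and 4 lower. C4A and C4B could not be tested by limma-trend, as they stayed under the FPKM limit. The sum of C1S and EMG1, most of it from EMG1, had a log2 fold change of -0.030 (edgeR adjusted p = 0.771). Tested alone, C1S had 2.16, and 1.67 to 2.22 in the alternatives. C4A, which had no call, turned from -0.09 to 0.024 without Huh7 P replicate 2 and to 0.045 without Huh7 LR replicate 2. It lay between -0.18 and 0.045 over all libraries left out in turn. C4B did not pass an adjusted p of 0.05 in any alternative that tested it alone. The sum of C4A, C4B and STK19 did pass (0.40, edgeR adjusted p = 0.0113), with STK19 as its larger part. C3, C5, CFB, C1R, MASP1 and MBL2 stayed higher with an adjusted p below 0.05 in every alternative run for them, where the one that sums overlapping genes rests mostly on C1RL in the case of C1R. C2 no longer passed an adjusted p of 0.05 in 3 alternatives, without Huh7 P replicate 1, Huh7 P replicate 3 or Huh7 LR replicate 3 (log2 fold change 0.70 to 0.76). With each library left out, the log2 fold change of C5 lay between 0.36 and 0.58. With the replicate block, 783 genes were called higher and 316 lower, 4 activation components were called higher and no call of an activation component changed. Deviations of libraries with the same number correlated at 0.0572, 0.0668 and 0.0254, so the numbers were not taken as pairs. C4A, C4B and C2 rest on at most 173 counts in a library. With each library left out, 8 or 9 other complement genes were called higher, against 10.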

Other observations

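Genes known to take part in the control of complement expression in hepatocytes were listed as receptors, transcription factors and a feedback inhibitor of the interleukin-6, interferon and liver-specific programmes. Of these 15 genes, 1, IRF1, was called higher in Huh7 LR and 0 were called lower, against 4.43% and 1.78% of all genes and loci tested. IRF1, an interferon-responsive transcription factor, rose from 4.14 ± 0.212 to 10.8 ± 1.24 CPM (mean ± SD, n = 3 per line), with a log2 fold change of 1.38 ± 0.13 (SE, edgeR adjusted p = 1.06e-05). At an adjusted p under 0.05, 9 of the 15 were higher and 1, NFKB1, was lower, against 23.3% and 22.4% of all genes and loci tested. STAT3, which relays interleukin-6 signals, rose from 90.3 ± 4.48 to 168 ± 2.78 CPM (mean ± SD, n = 3 per line), and CEBPD had a log2 fold change of 0.98. CEBPA had one of 0.58. HNF4A had a log2 fold change of -0.06 (edgeR adjusted p = 0.608). Whether any of these genes bears on the complement genes was not tested.

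Of the α2-macroglobulin family apart from C3, C4 and C5, 3 of 5 listed genes had enough counts to test. A2M, which encodes the protease inhibitor α2-macroglobulin, rose from 29.7 ± 0.956 to 54.5 ± 2.08 CPM (mean ± SD, n = 3 per line), with a log2 fold change of 0.88 (edgeR adjusted p = 4.31e-06). CD109 was higher at an adjusted p of 0.0323 with at most 30 counts in a library, and PZP did not pass the test.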
